A study of Caenorhabditis elegans with 16 samples.

Results

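The comparison described here sets larvae depleted of RPOA-2 against larvae that keep it. RPOA-2 is a subunit of RNA polymerase I, and it was the protein tagged for degradation. The comparison holds 8 of the 16 libraries of the series: 4 libraries of rpoa-2::degron; eft-3p::tir-1 larvae and 4 libraries of rpoa-2::degron larvae, chosen by their genotype labels. The assay was ATAC-seq, which maps open chromatin through the Tn5 transposase, an enzyme that cuts exposed DNA and attaches sequencing adapters to it. The unit of every value below is a peak, a stretch of the genome where reads collected, and 29131 peaks merged over all libraries were tested.

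Both groups were whole Caenorhabditis elegans animals at the first larval stage (L1), grown on plates with 1 mM auxin at 23 °C, and both carried the degron tag on RPOA-2. The RPOA-2 depleted larvae also carried TIR1, the auxin receptor protein that brings degron-tagged proteins to the ubiquitin ligase, driven by the broadly active eft-3 promoter, and were collected after 24 h. The RPOA-2 undepleted larvae had no TIR1 and were collected after 18 h. The TIR1 strains grow more slowly, for which reason they were given more time. Depletion, transgene, strain and collection time therefore cannot be told apart in any difference below. No library of the depleted strain without auxin was analysed here. According to the extraction protocol, one collection of larvae per strain was divided into its 4 replicates, so the spread between replicates holds the variation of nuclei preparation and library making but not that between separately grown cultures, and the p-values below measure only that spread. The frozen larvae were then processed in 4 batches, each with a single replicate of every strain, and the sources used here do not say whether the replicate number is the batch.

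RNA polymerase I transcribes the repeated genes of the large ribosomal RNAs in the nucleolus, where the first steps of ribosome assembly take place. During each larval stage the epidermis expresses cuticle collagens in waves ahead of the molt, and the heterochronic genes set the order of stage-specific cell fates. Peaks were grouped by their nearest gene into classes of this kind, together with ribosome, stress, immune, metabolic and regulatory genes.

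The 4 RPOA-2 depleted libraries held between 2337415 and 8275618 reads in peaks, and the 4 undepleted libraries between 2621847 and 6636849. A library in each group stood apart from its replicates. Depleted replicate 2 differed from the other depleted libraries with a chi-square per degree of freedom of 4.214 to 6.395, against at most 2.44 between the others. Undepleted replicate 1 differed from its replicates by 3.70 to 4.72, against at most 2.25. Levels are given in CPM, the read count of a peak relative to the total of its library after scaling by the trimmed mean of M-values (TMM), and the values of a group run from replicate 1 to replicate 4. The log2 fold changes come from a fit over all 16 libraries that also holds 2 estimated factors of unwanted variation, and they are depleted over undepleted. A peak was called a differentially accessible region (DAR) at an adjusted p-value under 0.05.

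The transgene and tag were checked first. The only peak nearest to rpoa-2 lay at its promoter (I:9286524-9286681) and had 5.66, 4.70, 4.18 and 4.24 CPM in RPOA-2 depleted larvae against 4.30, 5.59, 5.59 and 7.23 CPM in undepleted larvae (log2 fold change -0.22, adjusted p = 0.8). Since the degron acts on the protein, this peak does not check the depletion. The peak over eef-1A.1, the gene also known as eft-3 (III:6969946-6972381), had 204.1, 234.6, 200.9 and 201.0 CPM in depleted larvae against 163.2, 192.8, 166.8 and 180.3 CPM in undepleted larvae (0.23, adjusted p = 0.0979). The groups did not overlap there, but the difference did not pass the test. None of the 5 peaks nearest to unc-119 (log2 fold changes -0.09 to 0.28) and none of the 3 peaks at unc-54 (-0.04 to 0.10) was called. These are genes whose sequences are often part of worm transgenes.

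Accessibility was higher in RPOA-2 depleted larvae at 349 peaks (1.20% of all peaks tested) and lower at 142 (0.487%). At an unadjusted p under 0.05 there were 3577 peaks. Changes were small, with median log2 fold changes of 0.41 among increased and -0.43 among decreased DARs, and only 7 increased and 2 decreased DARs lay beyond 2-fold. In 156 of the 349 increased DARs (44.7%) the lowest depleted library exceeded the highest undepleted one, and in 98 of the 142 decreased DARs (69.0%) the groups were apart in the other direction. Over all peaks, these shares were 2.13% and 2.49%. Many of the increased DARs followed a single library: depleted replicate 2 was the highest depleted library in 293 of the 349. Undepleted replicate 1 was the lowest undepleted library in 240 of them. Among the 142 decreased DARs, depleted replicate 2 was the lowest depleted library in 22. Leaving depleted replicate 2 out gave 17 increased and 17 decreased DARs when the factors were estimated anew, with a change of sign at 3 increased DARs, and 91 and 72 when the control peaks for the factors were kept. With no factors there were 19 and 15, all of them among the 349 and 142, and no DAR changed sign. Leaving out other libraries also moved the counts: 74 were higher and 94 lower without undepleted replicate 1, without undepleted replicate 3 there were 84 and 58, without undepleted replicate 4 there were 153 and 78, without undepleted replicate 2 there were 254 and 91, without depleted replicate 3 there were 256 and 90, and without depleted replicate 1 there were 591 and 150.

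**Figure D1:**
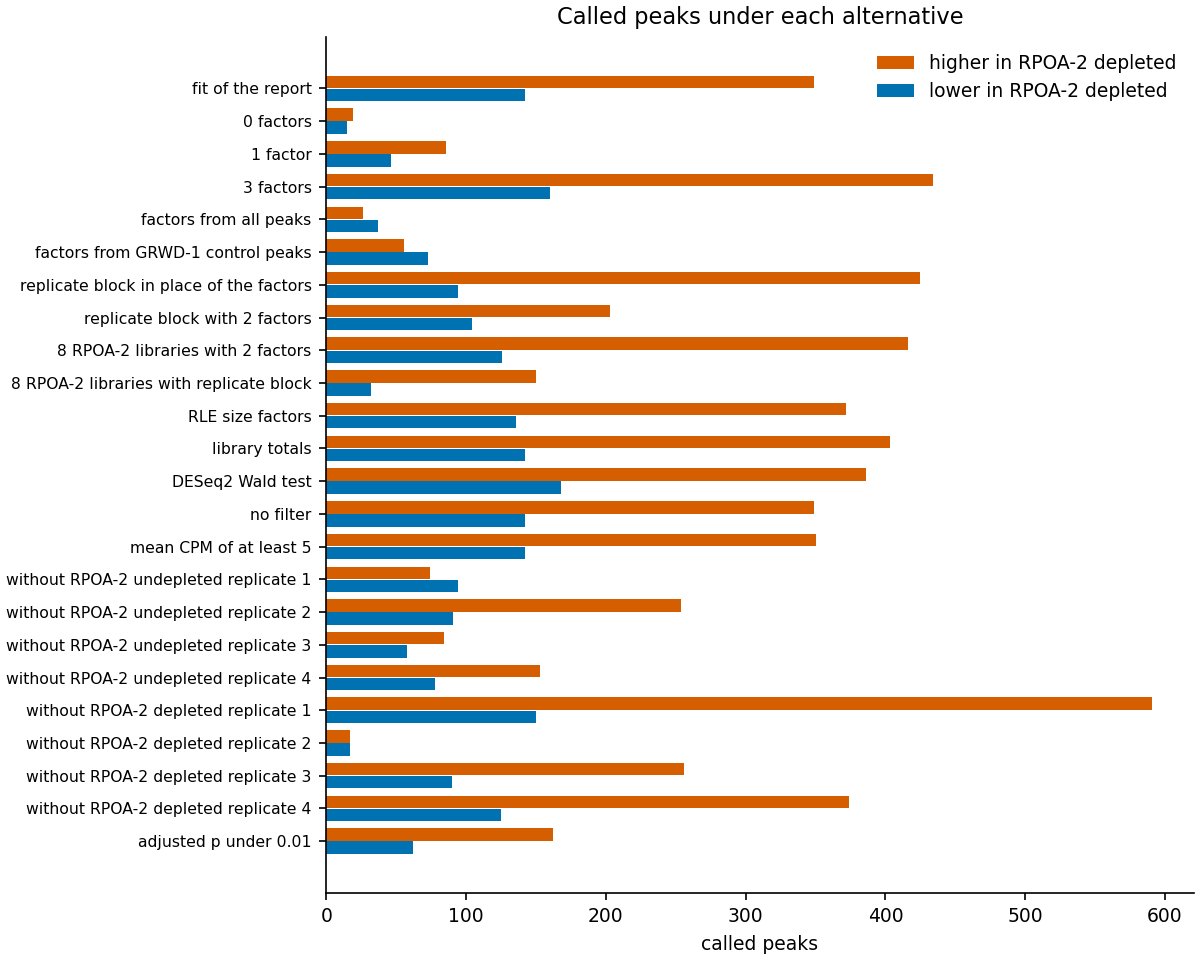
Number of peaks called higher (orange) and lower (blue) in RPOA-2 depleted larvae (horizontal axis) in the fit of the report, at 349 and 142, and under each alternative. The counts ran between 17 and 591 for increased DARs.

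**Figure D2:**
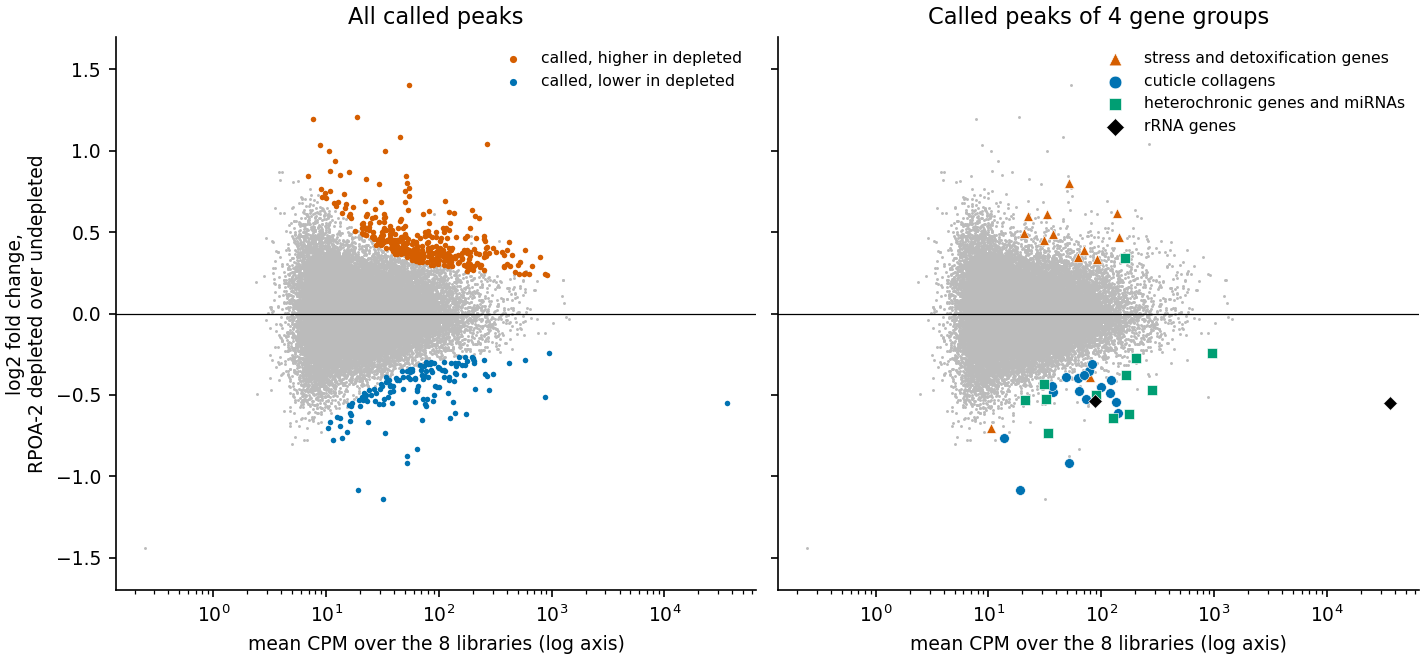
Log2 fold change of each peak (vertical axis, RPOA-2 depleted over undepleted) against its mean CPM over the 8 libraries (horizontal log axis). Left, the 349 increased DARs in orange and the 142 decreased DARs in blue; right, the DARs of 4 gene groups, with cuticle collagens and nearly all heterochronic loci below 0 and most stress and detoxification genes above 0. Grey points are all 29131 peaks tested.

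The largest rise was on chromosome II, in a run of 4 neighbouring peaks with F14E5.8 as the nearest gene, of which the first lies over fdgt-2. That peak (II:8418614-8419890) had 71.8, 67.5, 83.1 and 93.2 CPM in RPOA-2 depleted larvae against 30.4, 30.2, 30.6 and 28.5 CPM in undepleted larvae. Every depleted library lay far above the undepleted ones, with a log2 fold change of 1.4 (SE 0.139, adjusted p = 1.08e-19). The other 3 peaks, between 8420175 and 8421468 and named after their values were seen, had log2 fold changes of 1.00, 1.19 and 1.00. All 4 peaks of this gene were called and none overlapped between the groups. This stretch of chromosome II holds a Mos1 transposon site that is commonly used for single-copy worm transgenes. The sources used here do not say where the TIR1 transgene sits, and its part in these values cannot be told apart from that of depletion.

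An even smaller p-value was found at unc-18, which encodes a protein of synaptic vesicle release. A peak over the gene on the X chromosome (X:7681898-7685826) had 353.8, 360.0, 388.8 and 340.3 CPM in depleted larvae against 165.0, 185.2, 178.0 and 162.4 CPM in undepleted larvae (log2 fold change 1.04, SE 0.0997, adjusted p = 5.42e-21). The groups were far apart, with little spread within each. The neighbouring promoter of stn-2, a syntrophin gene of the dystrophin complex (X:7680389-7681820), had 127.0, 137.0, 152.4 and 137.2 CPM in depleted larvae against 64.7, 91.9, 79.8 and 110.7 CPM in undepleted larvae (0.69, adjusted p = 1.94e-09). Peaks further into stn-2 were not called, with log2 fold changes of -0.22, -0.07 and 0.18. Upstream of C39D10.7, also on the X chromosome, a pair of peaks rose. The first (X:7916104-7916493) had 22.6, 25.5, 32.6 and 23.5 CPM in depleted larvae against 6.76, 13.6, 8.51 and 16.7 CPM in undepleted larvae (1.21, adjusted p = 1.72e-08), and the second (X:7915643-7916001) had a log2 fold change of 0.87.

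Further increased DARs with no overlap between the groups lay at single genes. The promoter of F19B10.13 (II:3661907-3662564) had 49.2, 67.1, 76.0 and 56.3 CPM in depleted larvae against 22.9, 30.4, 26.1 and 34.99 CPM in undepleted larvae (log2 fold change 1.09, adjusted p = 9.59e-13). On the left end of chromosome V, a peak between picd-1 and rps-27 (V:104439-104640) had a log2 fold change of 1.03, and the peak at the promoter of rps-27, a protein of the small ribosomal subunit (V:103667-104277), one of 0.80 (adjusted p = 4.22e-06). The rps-27 peak had 31.02, 33.7, 46.4 and 38.5 CPM in depleted larvae against 21.5, 19.9, 23.1 and 20.9 CPM in undepleted larvae. The remaining genes of the largest rises were aakg-1, a regulatory subunit of the energy sensor AMP-activated kinase (0.85), R03H10.6 (0.85), C15B12.3 (0.82), mrp-2 (0.80), F10E7.11 (0.77) and F58D12.3 (0.75). Of the 12 largest rises with separate groups, 10 were also called with no factors and 8 without depleted replicate 2.

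**Figure D3:**
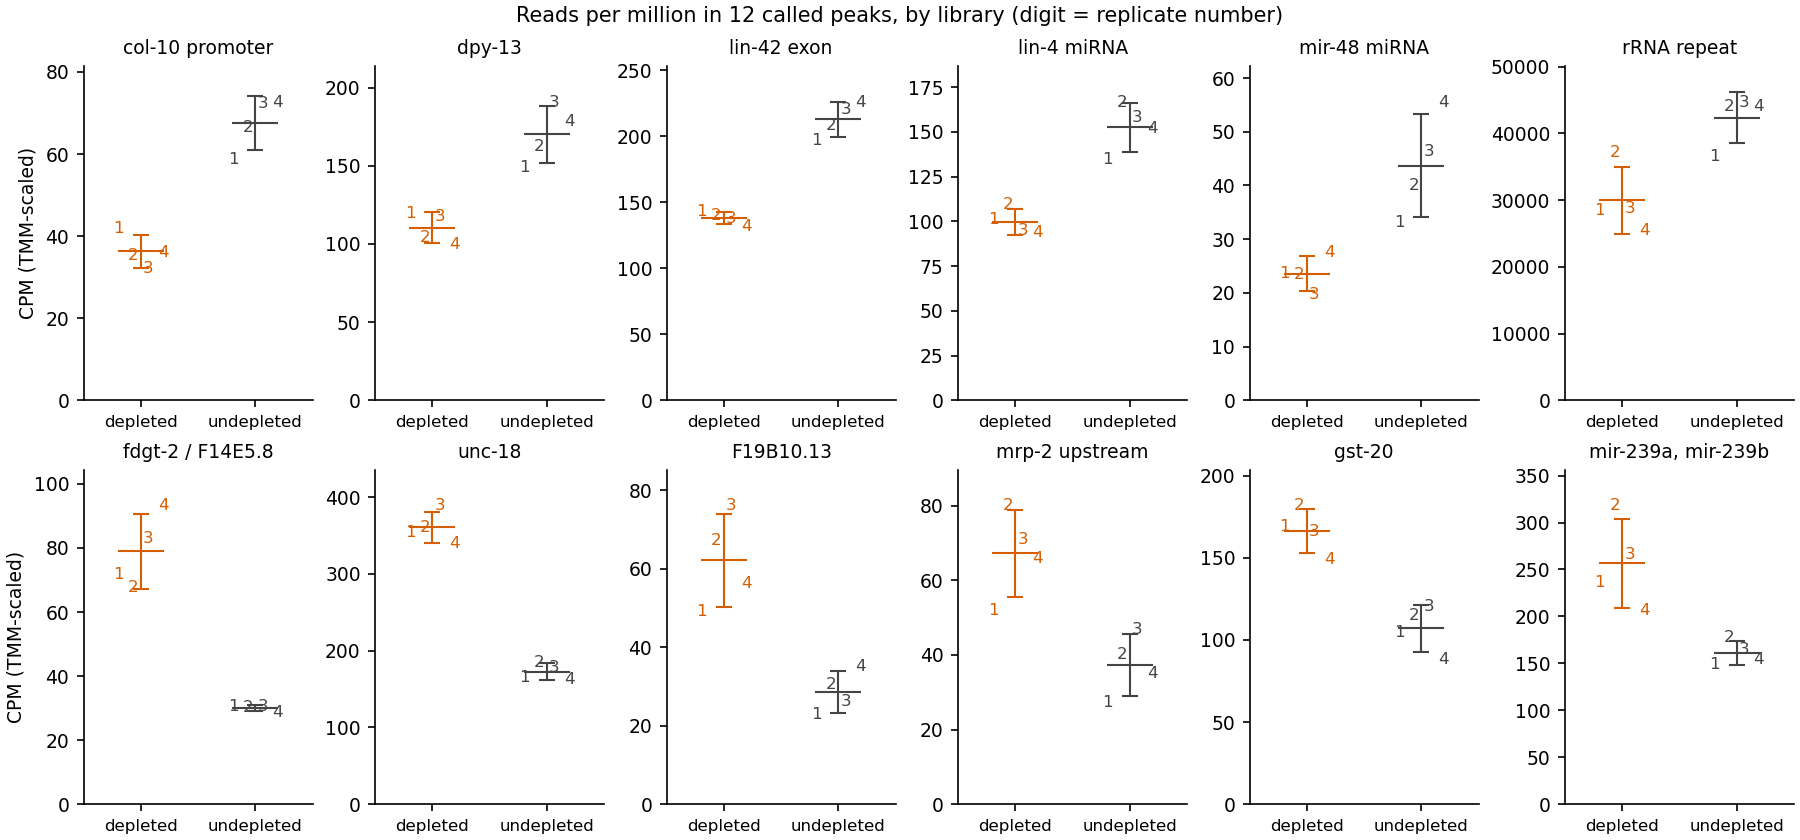
CPM (vertical axes, from 0) of 12 called peaks in each library, RPOA-2 depleted larvae in orange on the left of each panel and undepleted larvae in grey on the right. Digits are replicate numbers, horizontal bars are group means and whiskers are 1 SD (n = 4); the upper row shows decreased DARs and the lower row increased DARs, and among these 12 only in the rRNA repeat do the groups overlap, through depleted replicate 2 and undepleted replicate 1.

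The clearest group among the losses was the cuticle collagens, the structural proteins that the epidermis secretes to build each new larval cuticle. Of 277 peaks nearest to 158 collagen genes, 17 were called lower (6.14%, against 0.487% of all peaks) and 0 higher. In all 17 every depleted library lay below every undepleted library, as in 69.0% of all decreased DARs. Called or not, 22 of the 277 peaks were apart in this way, and over all peaks 2.49% were. The log2 fold changes of the 17 ran between -1.09 and -0.31. The median over all 277 was -0.04, against 0.00 over all peaks, and 167 of the 277 lay below 0. The summed level of the 277 peaks was 12600 to 13600 CPM in depleted larvae and 13600 to 14500 CPM in undepleted larvae. With no factors 5 collagen peaks were called lower, and without depleted replicate 2 there were 3.

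The collagen loss with the smallest p-value was at the promoter of col-10 (V:9164887-9165767), with 41.8, 35.3, 32.2 and 36 CPM in RPOA-2 depleted larvae against 58.7, 66.5, 72.3 and 72.7 CPM in undepleted larvae (log2 fold change -0.92, SE 0.131, adjusted p = 7.26e-09). A smaller peak between col-10 and col-145 (V:9163869-9164412) had 11.3, 10.71, 11.3 and 17.4 CPM in depleted larvae against 22.3, 29.9, 22.9 and 28.2 CPM in undepleted larvae (-1.09, adjusted p = 6.73e-06). Within 10 kb, the collagen gene col-144 was lower as well (-0.48, adjusted p = 0.00856), while the peaks at col-145 itself (-0.35 and -0.20) and the far side of col-10 (-0.21) were not called.

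Several of the other collagen genes are known from mutants with an altered body shape. At dpy-13 (IV:4235285-4237143), whose mutants are short and fat, accessibility was 119.6, 104.4, 117.8 and 99.9 CPM in depleted larvae against 148.6, 162.3, 190.7 and 178.4 CPM in undepleted larvae (log2 fold change -0.61, adjusted p = 4.04e-08). At sqt-3 (V:12352718-12354808) it was 123.5, 100.8, 98.6 and 109.7 CPM in depleted larvae against 143.0, 162.6, 163.9 and 169.3 CPM in undepleted larvae (-0.54, adjusted p = 1.91e-06). The promoter of sqt-1 (II:11337713-11337943) had 8.98, 10.3, 10.4 and 10.4 CPM in depleted larvae against 16.6, 15.6, 18.9 and 19.4 CPM in undepleted larvae (-0.76, adjusted p = 0.0039), and a second peak over sqt-1 fell by 0.38 on the log2 scale. dpy-4 was lower too (-0.41). The other collagen genes called lower, named after their values were seen, were dpy-5 (-0.52), col-107 (-0.49), col-17 (-0.48), rol-8 (-0.45), col-117 (-0.45), col-125 (-0.39), col-90 (-0.39), rol-6 (-0.35) and col-109 (-0.31). Of the 17 peaks, 11 had their midpoint in an exon and 4 in a promoter.

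Of 207 peaks at 68 genes of the molt cycle and the apical matrix, 1 was higher (0.483%, against 1.20% of all peaks) and 2 were lower (0.966%, against 0.487%), and none of these was called with no factors or without depleted replicate 2. The losses were at lpr-3 (-0.38, adjusted p = 0.00939) and lpr-4 (-0.55, adjusted p = 0.00616), lipocalins of the matrix that lines epithelia, and the gain lay upstream of nekl-3, a kinase required for molting (0.43, adjusted p = 0.0361). None of the 107 peaks of hedgehog-related genes, many of which also cycle with the molt, was called, and none of 95 peaks of astacins and ADAMTS proteases. The epidermal antimicrobial peptide gene nlp-33 (V:11146909-11148182) fell, with 55.2, 55.6, 55.1 and 53.8 CPM in depleted larvae against 65.5, 92.8, 85.7 and 99.3 CPM in undepleted larvae (-0.65, adjusted p = 3.42e-07). The depleted libraries were nearly equal there, and each was lower than every undepleted library.

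Heterochronic genes, which set the order of larval stages, were the second such group. Of 99 peaks at 13 genes, 7 were lower (7.07%, against 0.487% of all peaks) and 1 was higher (1.01%, against 1.20%). The median log2 fold change was -0.15, with 76 of the 99 below 0. With the peaks over the microRNA genes of the same pathway added, 11 peaks were lower (10.5%) and 1 was higher (0.952%). With no factors 1 of the 99 peaks was called lower and without depleted replicate 2 there were 2, while the median stayed at -0.13 and -0.17.

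At lin-42, the worm relative of the clock gene Period, which cycles with the molts, 4 of 13 peaks were called and 12 lay below 0. The strongest, over an exon (II:1238783-1241019), had 143.2, 140.2, 137.4 and 131.9 CPM in RPOA-2 depleted larvae against 196.5, 208.4, 220.0 and 225.9 CPM in undepleted larvae (log2 fold change -0.62, SE 0.0875, adjusted p = 5.76e-09). The spread within each group was small beside the gap between them, and the call held with no factors (adjusted p = 0.0104) and without depleted replicate 2 (adjusted p = 0.025). The promoter peak of lin-42 (II:1235750-1238541) had 240.0, 281.0, 207.1 and 223.8 CPM in depleted larvae against 296.8, 315.3, 346.3 and 338.9 CPM in undepleted larvae (-0.47, adjusted p = 4.22e-06). A pair of intronic lin-42 peaks had overlapping groups (-0.53 and -0.38). kin-20, a casein kinase that acts with lin-42, had 2 lower peaks of 7, at -0.55 (adjusted p = 0.00174) and -0.32 (adjusted p = 0.00647), both named after their values were seen.

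The microRNA genes of the pathway lost accessibility too. The peak over lin-4, the microRNA that represses lin-14 and lin-28 (II:5901167-5902481, in an intron of F59G1.4), had 100.9, 109.7, 94.8 and 94.0 CPM in depleted larvae against 134.4, 166.7, 158.0 and 151.8 CPM in undepleted larvae (log2 fold change -0.64, SE 0.0921, adjusted p = 9.07e-09). mir-48 and mir-241, members of the let-7 family that act at the second larval stage, lie next to each other on chromosome V. The mir-48 peak (V:14364438-14364983) had 23.6, 23.5, 19.6 and 27.5 CPM in depleted larvae against 33.03, 40.0, 46.3 and 55.5 CPM in undepleted larvae (-0.74, adjusted p = 7.74e-05), and without depleted replicate 2 its log2 fold change was -0.39 (adjusted p = 0.61). The mir-241 peak (V:14366205-14367212) had 64.4, 89.1, 75.6 and 67.6 CPM in depleted larvae against 84.97, 112.9, 103.7 and 121.0 CPM in undepleted larvae (-0.50, adjusted p = 9.94e-05), where depleted replicate 2 lay above undepleted replicate 1. Just beyond mir-241, a peak far upstream of unc-39 (V:14368208-14369002) had 42.5, 44.4, 27.98 and 27.5 CPM in depleted larvae against 63.9, 59.2, 78.2 and 69.6 CPM in undepleted larvae (-0.88, adjusted p = 2.29e-08). This was among the 4 largest losses with separate groups. Within 10 kb, the peaks at cyn-1 and the Y49A3A.4 promoter had log2 fold changes of -0.03 and -0.05, and on the other side the peaks nearest to unc-39 had -0.38 (V:14369490-14369781, adjusted p = 0.287) and -0.28 (V:14373076-14373516, adjusted p = 0.419).

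At let-7 itself the result was close to the threshold. One peak at the let-7 gene (X:14743565-14744205) had 25.4, 28.6, 23.8 and 26.9 CPM in depleted larvae against 31.2, 35.5, 41.5 and 33.9 CPM in undepleted larvae (-0.43, adjusted p = 0.0449), and the second (X:14744337-14744874) had a log2 fold change of -0.32 (adjusted p = 0.141). The peak over mir-84, another member of the family, had -0.15 (adjusted p = 0.676). Of the protein-coding genes, the long lin-14 peak (X:11471065-11484192) had -0.24 (adjusted p = 0.0148), a daf-12 intron -0.52 (adjusted p = 0.00262) and lin-66 -0.27 (adjusted p = 0.0246). lin-14 encodes the regulator of first-stage fates and daf-12 a nuclear hormone receptor of developmental timing. In the lin-14 and daf-12 peaks the groups overlapped. Upstream of lin-41, a target of let-7, a peak (I:9343426-9344401) had 159.8, 277.2, 142.8 and 163.9 CPM in depleted larvae against 108.3, 149.6, 145.0 and 144.5 CPM in undepleted larvae (0.34, adjusted p = 0.00991). That rise was not called without depleted replicate 2, where its log2 fold change was 0.22 (adjusted p = 0.741). No peak of lin-28 (3 peaks), hbl-1 (9) or lin-29 (5) was called.

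Over all microRNA genes, 5 of 93 peaks were lower (5.38%, against 0.487% of all peaks) and 6 were higher (6.45%, against 1.20%). The median log2 fold change of the 93 was 0.002. With no factors 2 were lower and 0 higher, and without depleted replicate 2 there were 1 and 0. Besides lin-4, mir-48, mir-241 and let-7, the remaining decreased DAR was at mir-80 (-0.30, adjusted p = 0.0306). The strongest rise covered mir-239a and mir-239b (X:11790691-11793107), with 236.5, 317.8, 266.0 and 205.8 CPM in depleted larvae against 149.2, 177.1, 164.7 and 153.7 CPM in undepleted larvae (0.60, adjusted p = 3.5e-08). The peaks at mir-2214 (0.48), mir-8196a (0.51), mir-90 (0.33), mir-228 (0.29) and mir-71 (0.25) were higher as well. mir-71 is known for its part in the resistance to starvation and in lifespan, but its peak had overlapping groups, and its log2 fold change was -0.03 without depleted replicate 2.

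Several of the largest single losses fell outside these groups. The promoter of R02E4.3 (X:4101958-4102559) had the largest, with 18.7, 17.4, 23.8 and 19.5 CPM in RPOA-2 depleted larvae against 34.1, 40.2, 49.7 and 50.2 CPM in undepleted larvae (log2 fold change -1.14, SE 0.147, adjusted p = 6.86e-11). At znf-782, a zinc finger gene on chromosome IV, 5 of 9 peaks were called and all 9 lay below 0. Its promoter peak (IV:1067230-1067910) had 41.9, 48.6, 33.4 and 56.3 CPM in depleted larvae against 68.2, 70.1, 84.9 and 107.3 CPM in undepleted larvae (-0.83, adjusted p = 1.72e-08). The remaining genes of the 12 largest losses were sup-10 (-0.78, within nhr-1), K07H8.7 (-0.73), dhs-28 (-0.70, over gei-15), unc-73 (-0.67) and T06D10.3 (-0.67). Of those 12, 7 were called with no factors, and 4 without depleted replicate 2. At metr-1, the methionine synthase that depends on vitamin B12, 3 of 6 peaks were lower (-0.64, -0.46 and -0.40) and all 6 lay below 0.

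Genes of stress defence and detoxification showed more gains than losses, as did all peaks together. Of 423 peaks at 193 listed genes, 11 were higher (2.60%, against 1.20% of all peaks) and 2 were lower (0.473%), with a median log2 fold change of 0.03. The lists are not complete: peaks nearest to the stress genes F44E5.4 (0.63, adjusted p = 0.0141) and ftn-1 (0.59, adjusted p = 0.00199), outside them, were called higher. Glutathione S-transferases, which conjugate glutathione to toxic compounds, made up 4 of the 11. The peak over gst-20 and gst-24 (II:13609452-13611543) had 169.2, 181.6, 165.8 and 149.1 CPM in RPOA-2 depleted larvae against 104.5, 115.0, 120.5 and 88.2 CPM in undepleted larvae (0.62, SE 0.0934, adjusted p = 5.56e-08). The neighbouring gst-15 (II:13612143-13612605) had 27.9, 21.6, 37.6 and 23.3 CPM in depleted larvae against 19.2, 16.5, 20.2 and 14.8 CPM in undepleted larvae (0.60, adjusted p = 0.00799). gst-21 (0.49) and gst-39 (0.35) had overlapping groups. These genes share sequence, so reads that fit several of them may have been discarded for low mapping quality or placed at another copy.

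The drug transporter gene mrp-2 had the largest change in this group. Its upstream peak (X:573123-573783) had 51.9, 79.9, 71 and 65.8 CPM in depleted larvae against 27.3, 40.0, 46.8 and 34.99 CPM in undepleted larvae (0.80, SE 0.118, adjusted p = 2.29e-08), and the call held with no factors and without depleted replicate 2. mrp-6, of the same family (X:4188395-4188931), had 39.03, 48.98, 31.3 and 40.0 CPM in depleted larvae against 24.6, 25.2, 23.7 and 30.4 CPM in undepleted larvae (0.61, adjusted p = 0.000396). The small heat shock gene hsp-43 (X:6233915-6236541) had 171.7, 188.5, 154.1 and 151.8 CPM in depleted larvae against 122.5, 114.4, 120.5 and 117.5 CPM in undepleted larvae (0.47, adjusted p = 2.75e-05). The cytochrome genes cyp-33C8 (0.49) and cyp-35A4 (0.39), the cadmium-responsive cdr-4 (0.45) and the chaperone gene dnj-5 (0.33) completed the 11. Both losses were nearest to dhs-28, a dehydrogenase of peroxisomal fatty acid breakdown (-0.70 and -0.39). The peak with -0.70 lay over the neighbouring gene gei-15 and not over dhs-28, and the other lay over both. With no factors, 3 detoxification peaks and 1 stress peak were called higher, and without depleted replicate 2 there were 1 and 0.

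The listed immunity genes had no gains. The list is not complete: peaks nearest to the immune signalling genes sek-1 (0.32) and nipi-3 (0.24), outside it, were called higher. Of 513 peaks at 267 genes of innate immunity and lysozymes, 0 were higher and 5 were lower (0.975%, against 0.487% of all peaks). Besides nlp-33 these were 2 peaks at hlh-30, a regulator of autophagy and of the response to pathogens (-0.39 and -0.30), zip-2, a bZIP regulator of the response to a block of translation (-0.31), and clec-139 (-0.45). With no factors and without depleted replicate 2 there was 1 loss each. The hlh-30 promoter (IV:4017687-4019418) had 92.3, 97.05, 93.1 and 100.8 CPM in depleted larvae against 121.5, 126.9, 122.1 and 127.8 CPM in undepleted larvae, with no overlap (adjusted p = 0.00113). Of 299 peaks at C-type lectin genes, 1 was lower (0.334%) and 0 were higher.

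Ribosomal RNA genes, the templates of RNA polymerase I, took a smaller share of reads in depleted larvae. The 3 peaks over rRNA genes held 2.98, 3.46, 2.96 and 2.70% of all peak reads in RPOA-2 depleted libraries, against 3.90, 4.42, 4.53 and 4.44% in undepleted libraries, so the groups did not overlap as shares of total counts. Nearly all of these reads lay in one peak over rrn-1.1, rrn-2.1 and rrn-3.1 at the right end of chromosome I (I:15063578-15068104), to which reads of all repeat copies may align. On the TMM scale it had 28504, 37109, 28678 and 25462 CPM in depleted larvae against 36563, 43994, 44677 and 44071 CPM in undepleted larvae. On that scale depleted replicate 2 lay above undepleted replicate 1, and all other depleted libraries lay below every undepleted one. Its log2 fold change was -0.55 (SE 0.0679, adjusted p = 5.4e-12). Without depleted replicate 2 it was -0.70 (adjusted p = 6.83e-05), and with no factors -0.50 (adjusted p = 0.565), so the call was lost with no factors. A short peak beside it (I:15068200-15068595) had -0.54 (adjusted p = 9.94e-05), also not called with no factors, and a nearby peak over a pseudogene of the repeat's edge (I:15060874-15061359) had -0.69 (adjusted p = 0.0109). The peak over the 5S rRNA gene rrn-4.15, which RNA polymerase III transcribes (V:17426266-17429038), had 156.1, 139.4, 143.2 and 144.0 CPM in depleted larvae against 169.9, 144.3, 146.6 and 130.5 CPM in undepleted larvae (-0.01, adjusted p = 0.981).

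Counts at the listed protein-coding genes of ribosome production were 0 to 2 per class. The lists are not complete: a peak nearest to emg-1, a ribosome assembly gene outside them, was called higher (0.43, adjusted p = 0.004). Of 130 peaks at 64 cytosolic ribosomal protein genes, 2 were higher (rps-27, given above, and rps-24 at 0.47), a share of 1.54% against 1.20% of all peaks, and 0 were lower, with a median log2 fold change of 0.00. Among peaks at 46 genes of ribosome assembly and RNA polymerase I, 0 were higher and 1 was lower (0.775%, against 0.487% of all peaks), at ncl-1, a repressor of nucleolar size. That peak (III:7733400-7736866) had 186.7, 180.6, 199.2 and 165.6 CPM in depleted larvae against 201.4, 222.7, 246.1 and 225.6 CPM in undepleted larvae (-0.29, adjusted p = 0.0157). Among 66 peaks of mitochondrial ribosomal proteins, 1 was higher (1.52%). Neither that peak nor the ncl-1 peak was called with no factors or without depleted replicate 2. Cytosolic ribosomal protein peaks called higher numbered 1 with no factors and 0 without depleted replicate 2. None of the 108 peaks at translation factors and tRNA synthetases and none of the 52 proteasome peaks was called. Of 409 peaks over tRNA genes, 3 were higher (0.733%, against 1.20% of all peaks) and 6 lower (1.47%, against 0.487%). With no factors 0 tRNA peaks were called in either direction, and without depleted replicate 2 there were 1 higher and 0 lower.

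Small nucleolar RNAs guide the modification of ribosomal RNA. Peaks over their genes were higher in 9 of 200 (4.50%, against 1.20% of all peaks) and lower in 1 (0.500%, against 0.487%). The strongest, next to that at mir-239a, lay in an intron of pcmd-1 over C17D12.8 (I:11609000-11609504), with 60.7, 82.2, 68.9 and 61.6 CPM in RPOA-2 depleted larvae against 29.04, 45.8, 43.1 and 45.6 CPM in undepleted larvae (0.72, adjusted p = 1.74e-07). Peaks over piRNA genes were higher in 15 of 251 (5.98%, against 1.20% of all peaks) and lower in 3 (1.20%, against 0.487%). All but the peak nearest to sup-26 lay on chromosome IV. These classes are read from overlap alone, so the peak may belong to a neighbouring coding gene. With no factors 1 snoRNA peak and 0 piRNA peaks were called, and without depleted replicate 2 there were 2 and 0.

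**Figure D4:**
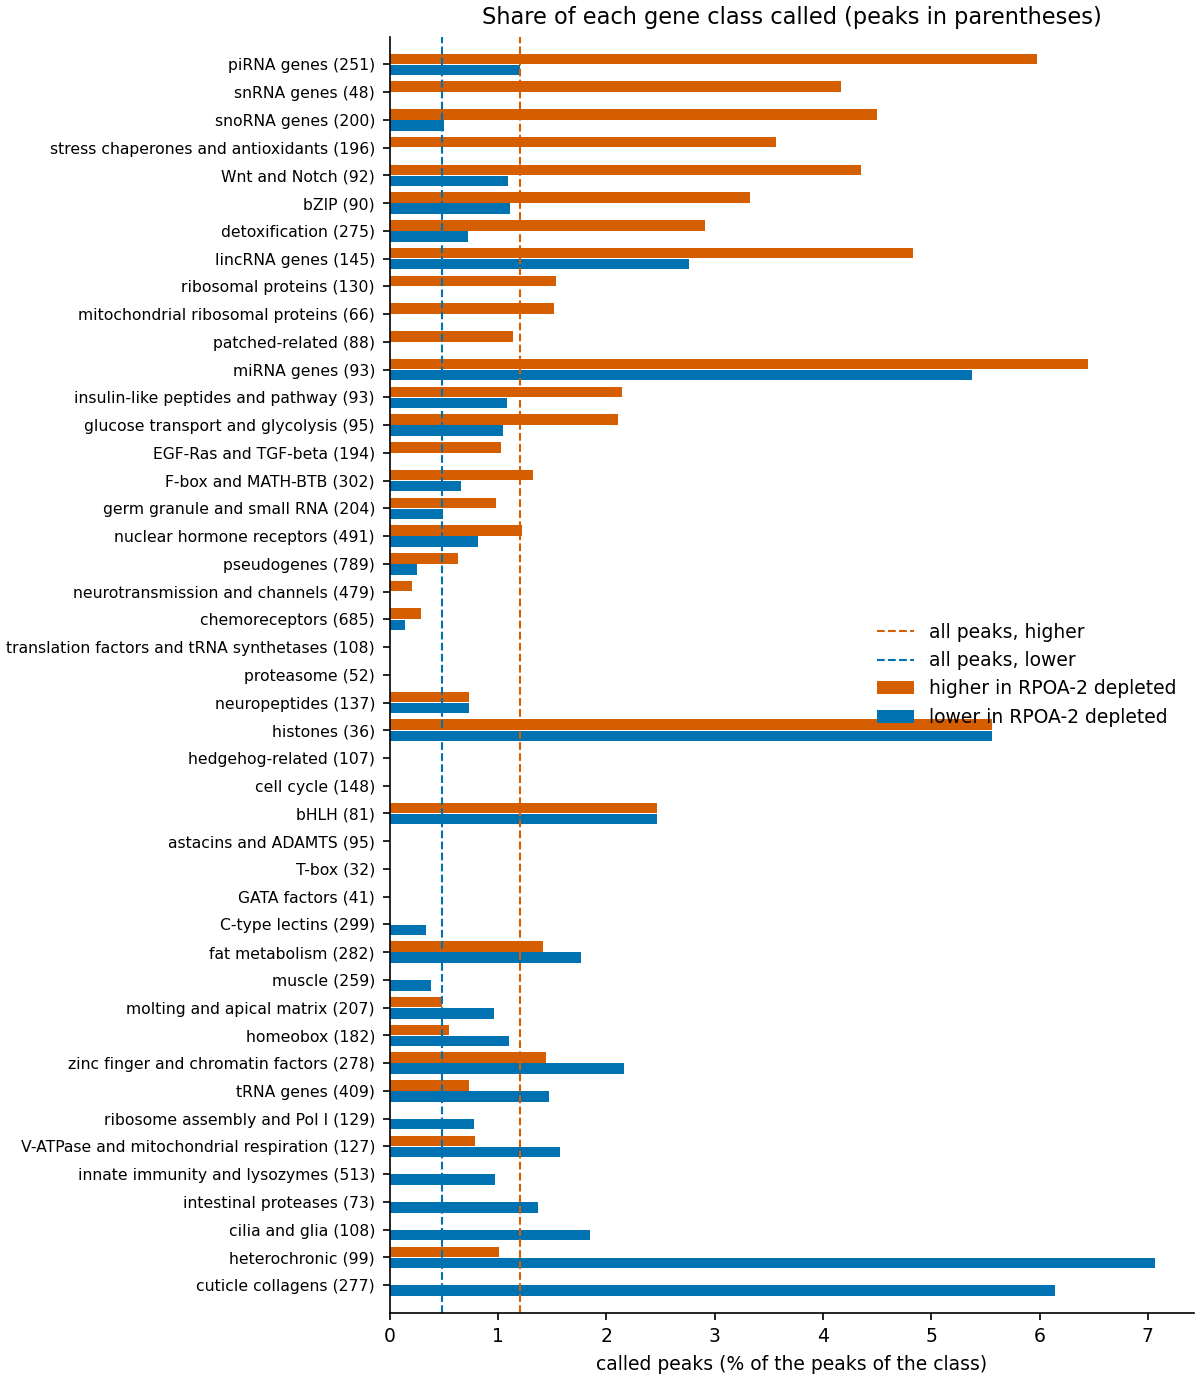
Share of the peaks of each gene class that was called higher (orange) or lower (blue) in RPOA-2 depleted larvae, in percent of the peaks of the class, with the number of peaks in parentheses; classes of under 30 peaks are left out. Dashed lines mark the shares over all peaks, 1.20% and 0.487%; heterochronic genes (7.07%) and cuticle collagens (6.14%) have the longest bars for losses.

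Of 282 peaks at 108 genes of fat metabolism, 4 were higher (1.42%, against 1.20% of all peaks) and 5 were lower (1.77%, against 0.487%). With no factors 0 were higher and 0 lower, and without depleted replicate 2 there were 0 and 1. The losses included fasn-1 and pod-2, the fatty acid synthase and the acetyl-CoA carboxylase of fat synthesis, and acs-2, an acyl-CoA synthetase induced by fasting. fasn-1 (I:8980531-8982493) had 100.1, 84.5, 93.1 and 93.8 CPM in depleted larvae against 109.1, 117.4, 133.5 and 118.7 CPM in undepleted larvae (-0.35, adjusted p = 0.00687). pod-2 had -0.29 (adjusted p = 0.0146), and acs-2 had -0.37 (adjusted p = 0.00126) with overlapping groups. The gains included a peak nearest to atgl-1, the lipase that releases fatty acids from fat stores (0.35, adjusted p = 0.00874), ech-2 (0.35) and mboa-7 (0.47). Among genes of sugar metabolism, pck-2, a carboxykinase of gluconeogenesis, was lower (-0.38, adjusted p = 0.00241), and tps-1 and gsy-1, which make trehalose and glycogen, were higher (0.36 and 0.39). All 3 had overlapping groups, and none of them was called with no factors or without depleted replicate 2. At daf-16, the FOXO factor of insulin signalling, one exon peak was lower (-0.35, adjusted p = 0.0101) and one upstream peak higher (0.35, adjusted p = 0.0471). Neither daf-16 peak was called with no factors or without depleted replicate 2.

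Of 491 peaks at nuclear hormone receptor genes, which encode transcription factors, 6 were higher (1.22%, against 1.20% of all peaks) and 4 lower (0.815%, against 0.487%), the largest of them at nhr-104 (0.58, adjusted p = 0.000458) and daf-12. The nhr-104 peak (IV:4783769-4784286) had 51.1, 91.2, 48.9 and 39.8 CPM in depleted larvae against 33.96, 35.4, 36.2 and 32.3 CPM in undepleted larvae, and its log2 fold change was 0.24 (adjusted p = 0.833) without depleted replicate 2. Of 90 peaks at genes of bZIP transcription factors, 3 were higher (3.33%) and 1 was lower (1.11%), at zip-2, given above. The gains lay at fos-1 (0.37, adjusted p = 0.00121), at jun-1 (0.40, adjusted p = 0.025), its partner in the AP-1 complex, and at atfs-1, the regulator of the mitochondrial unfolded protein response (0.37, adjusted p = 0.00676). In each of these, depleted replicate 2 was the highest library, and without it the values were 0.19, 0.24 and 0.24 with adjusted p-values of 0.776, 0.738 and 0.717. In the Wnt and Notch pathways, 4 of 92 peaks were higher (4.35%) and 1 was lower (1.09%). With no factors 0 peaks of the nuclear hormone receptor, bZIP or Wnt and Notch classes were called in either direction. Without depleted replicate 2 there were 0 gains in these classes, 1 loss each among nuclear hormone receptors and in Wnt and Notch, and 0 losses among bZIP genes. arg-1, a Notch ligand (X:1791097-1791705), had 42.1, 44.9, 41.3 and 45.5 CPM in depleted larvae against 26.3, 30.8, 37.2 and 28.5 CPM in undepleted larvae (0.52, adjusted p = 0.00231). osm-11, a secreted co-ligand of Notch (X:17419720-17422706), had 180.7, 208.6, 165.8 and 159.4 CPM in depleted larvae against 216.6, 283.6, 223.2 and 223.3 CPM in undepleted larvae (-0.47, adjusted p = 6.73e-06). The eor-1 peak, at the gene of a zinc finger factor, had -0.18 (adjusted p = 0.612).

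Of 36 peaks at histone genes, 2 were higher (5.56%, against 1.20% of all peaks), at the linker histone genes hil-1 (0.50) and hil-7 (0.39). Another 2 were lower (5.56%, against 0.487%). None of the 4 was called with no factors or without depleted replicate 2. The losses lay at the core histone genes his-59 and his-60 (-0.45, adjusted p = 0.000807) and his-5 and his-6 (-0.40, adjusted p = 0.00827). Core histone genes are present in near-identical copies, so reads that fit several copies may have been discarded for low mapping quality or placed at another copy. No peak of the cell cycle (148 peaks), GATA factor (41) or T-box (32) genes was called in either direction. A class with no call is not shown to be unchanged. Chemoreceptor genes, with 685 peaks the largest coding class, had 2 higher and 1 lower (0.292% and 0.146%), below the shares over all peaks. Muscle genes had 0 higher and 1 lower of 259 (0.386%, against 0.487% of all peaks).

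Markers of the tissues of the larva were counted to see whether the makeup of the nuclei moved with the groups. No peak at marker genes of intestine (14 peaks), epidermis (46), body wall muscle (40), pharynx (34) or germ line (13) was called. Of 29 peaks at marker genes of neurons, 3 were higher (10.3%, against 1.20% of all peaks). They lay at unc-64 (0.38), egl-3 (0.36) and rgef-1 (0.38), all named after their values were seen. In the larger class of neurotransmission and channel genes, 1 of 479 peaks was higher (0.209%) and 0 were lower. The summed level over the 29 neuron peaks was 1090 to 1510 CPM in depleted larvae and 1010 to 1120 CPM in undepleted larvae. None of the 3 neuron marker peaks was called without depleted replicate 2 or with no factors. In whole animals a larger share of nuclei of a type and more accessible chromatin within it cannot be told apart. The part of tissue makeup in the results above was not tested.

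The position of the DARs within genes was compared next. Of the 349 increased DARs, 109 (31.2%) had their midpoint in a promoter, taken as 500 bp before to 100 bp after the 5′ end of a transcript, 161 (46.1%) between genes and 19 (5.44%) in an exon. Of the 142 decreased DARs, 22 (15.5%) lay in a promoter, 30 (21.1%) between genes and 60 (42.3%) in an exon. Among all peaks, 17.4% lay in promoters, 22.5% between genes and 34.5% in exons. Put the other way, 2.15% of promoter peaks and 0.189% of exon peaks were called higher, while 0.434% and 0.597% were called lower. DARs were also longer than other peaks, with a median of 669 bp for increased and 1017 bp for decreased DARs against 381 bp for all peaks. Their median level was 64.1 CPM for increased and 69.7 CPM for decreased DARs, against 19.8 CPM for all peaks. The class shares above were not matched for length or level. Among peaks of at least 1000 bp, exons held 7 of 78 increased (8.97%) and 41 of 72 decreased DARs (56.9%), beside 39.7% of all such peaks. With no factors exons held 10.5% of 19 increased and 33.3% of 15 decreased DARs, promoters 36.8% and 33.3%, and peaks between genes 31.6% and 20.0%. Without depleted replicate 2, exons held 11.8% of 17 increased and 35.3% of 17 decreased DARs, promoters 41.2% and 17.6%, and peaks between genes 23.5% and 35.3%, so that the difference between genes was then the other way round. Many worm transcripts are trans-spliced, so the annotated 5′ end can lie downstream of the place where transcription starts.

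**Figure D5:**
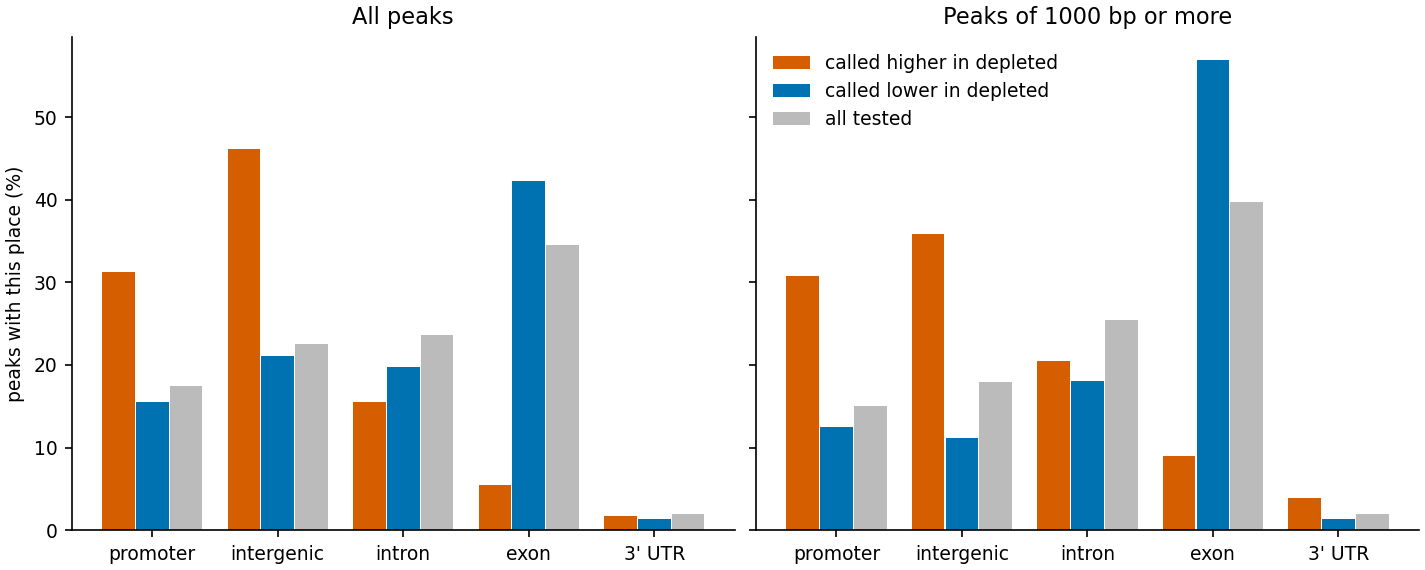
Percent of the increased DARs (orange), decreased DARs (blue) and all tested peaks (grey) with their midpoint in each part of a gene; left, all 29131 peaks, and right, peaks of 1000 bp or more. Exons hold 42.3% of the decreased and 5.44% of the increased DARs on the left.

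By chromosome, the share of peaks called higher ran between 0.923% on chromosome V and 1.37% on chromosome I, and the X chromosome, with 79 increased DARs (1.34%), was within that range. The share called lower ran between 0.216% on chromosome III and 0.601% on chromosome IV. Median log2 fold changes of whole chromosomes lay between -0.01 (X) and 0.02 (III). In the central regions of the chromosomes 0.672% of peaks were called lower and on the arms 0.393%, while the shares called higher were 1.14% and 1.23%.

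The depletion of GRWD-1, a ribosome assembly factor named rrb-1 in the labels, was measured in the same series with its own undepleted strain, under the same times and transgene. At the following peaks its log2 fold changes had the same sign as those of RPOA-2: 1.3 at fdgt-2, 0.97 at unc-18, -0.76 at the col-10 promoter, -0.56 at the lin-42 exon and -1.0 at lin-4. Of the 17 collagen DARs, 16 were also called lower there. GRWD-1 depletion gave 166 increased and 236 decreased DARs in the same fit, whose control peaks came from the RPOA-2 comparison. Its losses outnumbered its gains there, unlike those of RPOA-2. For RPOA-2 this order depended on the setting, with 56 increased and 73 decreased DARs when factors came from GRWD-1 control peaks. With factors from all peaks RPOA-2 had 26 and 37, and without undepleted replicate 1 it had 74 and 94. The paper, which used DESeq2 as the test, reported mostly increased DARs for both depletions. The difference between both effects passed the test at 3 of 29131 peaks. The rRNA peak was one of them, with -0.55 for RPOA-2 and -0.08 for GRWD-1, a difference of -0.47 (adjusted p = 0.000696). The pseudogene peak beside it was another (a difference of -1.03, adjusted p = 0.028). The last lay at kvs-3, with a log2 fold change of 9.61 for GRWD-1 (adjusted p = 5.17e-48). The RPOA-2 comparison did not call that peak (-1.44, adjusted p = 0.632).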

How the data were processed

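ATAC-seq was performed on 16 libraries of L1 larvae, and 8 of them, 4 RPOA-2 depleted and 4 RPOA-2 undepleted, enter the comparison. The deposited values are whole-number counts of reads per merged peak, without normalization. Per the labels and the methods, the authors used fastp for trimming and Bowtie2 for alignment to WBcel235. Duplicates were marked, and alignments to mitochondrial DNA or of low mapping quality were discarded. MACS2 peaks of single libraries were combined by HOMER into one set, over which featureCounts 2.0.1 counted non-duplicate reads on either strand. The methods give the MACS2 shift as a positive value, and the effect of this on peak borders was not tested. Read pairs were counted as reads, so a fragment can count more than once.

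The counts of all 16 libraries were fitted with edgeR 4.0.16 (glmQLFit and glmQLFTest, R 4.3.3) after TMM scaling and filterByExpr, which removed 0 of 29131 peaks. All groups entered the fit to share the estimate of spread (10 residual degrees of freedom). The design held 4 genotypes and 2 factors computed after the RUVg method from 13897 control peaks (47.7%), which reached an adjusted p of 0.75 or more when DESeq2 1.42.0 was run on the RPOA-2 comparison. P-values were adjusted by Benjamini-Hochberg over all peaks. Because edgeR gives no standard error, one was derived from each log2 fold change and the normal quantile matching its p-value. Dispersion corresponded to a biological coefficient of variation of 8.15%.

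A peak's gene is the protein-coding gene with the transcript 5′ end nearest to its midpoint in Ensembl release 115 of WBcel235. Genes with overlapping or bidirectional promoters share peaks. Named peaks are the 12 largest log2 fold changes per direction among DARs with no overlap between the groups (1 per gene) and their neighbours within 10 kb where 2 of them lie together, peaks at rpoa-2, eft-3, unc-54, unc-119, eor-1 and rRNA genes, and up to 3 called peaks per class and direction with the smallest p. The comparison, the classes and the marker lists were chosen with earlier results of these data known. The genome sequence was not used here, and no motif was searched.

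The replicate numbers of the groups were compared by the correlation of deviations from the group means. Alternatives were other numbers and sources of factors, a replicate block, other scalings, filters, tests and thresholds, a restriction to the 8 libraries, and the omission of each library in turn. Leaving out a library with the control peaks kept was added after seeing the data, as were class counts under 3 of the alternatives.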

Additional observations from a re-analysis of the deposited data

Results flagged for a closer look

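Within a group of 4 libraries, a value was marked where its gap to the nearest other value took up most of the range of the group, by Dixon's 95% critical value. This was checked in 346 groups of 4 values, of which chance marks about 1 in 20, and 31 were marked. In 18 of these the marked library was depleted replicate 2, always as the highest. No cause was tested.

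The values of depleted replicate 2 in CPM, most followed by the nearest other depleted library, were 175 at twk-2, 154 (96.1) at dnj-5, 339 (198) at lag-1, 283 (188) at hil-7, 412 (260) at atgl-1, 211 at met-1, 806 (401) at let-526, 277 (164) at lin-41 and 99.5 (56.4) at F58D12.3. They were 181 (104) at nhr-48, 730 (393) at mrpl-20, 204 at ech-2, 444 (269) at daf-5, 223 (128) at pdk-1, 111 (74.3) at cyp-35A4, 637 (376) at hlh-11, 1500 (862) at the mir-71 peak nearest to ppfr-1 and 235 (204) at eef-1A.1. All of these but eef-1A.1 were increased DARs. Depleted replicate 1 was lowest at the sqt-1 promoter with 8.98 (10.3) and highest at the znf-782 peak from 1068659 with 84.1 (77.7), and depleted replicate 4 was highest at the col-145 peak with 17.4 (11.3).

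Undepleted replicate 1 was lowest with 108 CPM (145) at lin-41, 271 (323) at mrpl-20, 29 (43.1) at pcmd-1, 38.4 (44.1) at fbxb-72 and 36600 (44000) at the rRNA repeat nearest to F31C3.6, and highest with 10.4 (5.74) at cyc-2.2. Undepleted replicate 2 was highest with 46.8 CPM (39.2) at col-117, 284 (223) at osm-11 and 132 (92.8) at the short rRNA peak from 15068200, and undepleted replicate 3 was lowest with 18.9 (22.1) at nlp-2.

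The effects of RPOA-2 and GRWD-1 depletion differed by the test of the difference itself at the rRNA repeat, with a difference of -0.47 on the log2 scale (adjusted p = 0.000696), and at the pseudogene peak from 15060874, with -1.03 (adjusted p = 0.028).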

How the results depend on the processing

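The number of DARs depended strongly on the factors and on single libraries. Increased and decreased DARs numbered 19 and 15 with 0 factors, 86 and 46 with 1 factor, 434 and 160 with 3, 26 and 37 with factors from all peaks and 56 and 73 with factors from GRWD-1 control peaks. There were 416 increased DARs in a fit of 8 libraries, and the counts were 372 and 136 with RLE size factors, 403 and 142 with library totals, 386 and 168 with the DESeq2 Wald test, 350 and 142 at a mean CPM of at least 5, and 162 and 62 at an adjusted p under 0.01. The fit without a filter was identical at 349 and 142. Leaving out 1 library gave 17 to 591 increased and 17 to 150 decreased DARs, and with the control peaks kept, which was chosen after seeing the data, 91 to 401 and 61 to 140, among them 217 without undepleted replicate 1, 123 without undepleted replicate 2, 72 decreased without depleted replicate 2 and 88 decreased without depleted replicate 3. The cause of these differences was not tested.

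Libraries with the same replicate number in both groups had correlations of their deviations of 0.244, 0.193, 0.019 and -0.019, so the numbers were not taken as pairs. Replicates 1 and 2 correlated best with their own number, and replicates 3 and 4 did not. A replicate block in place of the factors gave 425 and 94 DARs, a block with 2 factors 203 and 104, and a block in 8 libraries 150 and 32. Of the DARs under the first block, 314 and 83 were among the 349 and 142, and heterochronic genes had 2 gains and 3 losses in place of 1 and 7. The sources do not say whether the numbers mark the 4 processing batches. The second factor was negative in all libraries numbered 1 and 2 and positive in all numbered 3 and 4, in each of the 4 strains.

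For 169 named called peaks under 31 settings, 5211 of 5223 values kept their direction, 3601 kept direction and call, and 1610 lost the call. These peaks were chosen because they were called in the same data. The fit without a filter and the threshold of 0.01 could not change a direction. The reversed values were -0.09 with factors from all peaks and -0.02 without depleted replicate 2 at dnj-5 (leaving out 1 library gave -0.02 to 0.43), -0.10 with factors from all peaks and -0.01 with those from GRWD-1 control peaks at lag-1, -0.09 and -0.01 under the same settings at let-526, and -0.12, -0.04 and (without depleted replicate 2, in a range of -0.03 to 0.36) -0.03 at ppfr-1. With factors from all peaks C53C7.3 had 0.10, daf-5 -0.01 and hlh-11 -0.03. The 5S peak nearest to T27C5.10, which was not called, had 0.00 with 1 and 3 factors, 0.01 with a replicate block and 2 factors, 0.03 without undepleted replicate 1 and 0.01 without depleted replicate 4. At unc-119, 1 peak was called without depleted replicate 1. Totals of 2337415 to 8275618 reads and a median of 19.8 CPM limit what can be called at short peaks.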
